A study of Mus musculus with 4 samples.

Results

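miR-375 and miR-7 are the classic miRNAs of the pancreatic islet, and their 7 mature forms were followed from insulin-secreting cells into the exosomes that these cells release. The 7 are both arms of miR-375 (mmu-miR-375-3p and mmu-miR-375-5p) and the miR-7 family (mmu-miR-7a-5p, mmu-miR-7a-1-3p, mmu-miR-7a-2-3p, mmu-miR-7b-5p and mmu-miR-7b-3p), written from here on without the prefix for mouse. They were chosen by name from the 1915 mouse miRNAs in the deposited table, of which 1101 had a count, and all 7 had counts in every library. The study sequenced small RNA of MIN6, a mouse insulinoma line used as a model of the pancreatic beta cell, and of MIN6-derived exosomes, to learn which miRNAs the vesicles carry. The cells were untreated and grown in medium with exosome-depleted serum, and the exosomes were pelleted by ultracentrifugation from the filtered conditioned medium of the same line. There were 2 libraries of each, all from a single cell line, and no label says that the 2 came from separate cultures, so p-values measure the spread between these libraries only.

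Each miRNA gene is transcribed into a hairpin, and cutting of the hairpin frees a duplex of a 5p and a 3p arm. Usually 1 arm is loaded into an Argonaute protein and represses mRNAs that pair with its seed (bases 2 to 8), while the other is degraded. miR-375 acts through its 3p arm, is required for normal islet cell mass and restrains insulin secretion. miR-7 acts through its 5p arm, is prominent in endocrine and neuronal cells, and restrains insulin secretion and beta-cell proliferation.

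The mature sequences are shown as the deposited files give them, since the bases of the whole sequence set which members a read can be told apart from. Capitals mark the seed.
miR-375-3p: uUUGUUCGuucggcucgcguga
miR-375-5p: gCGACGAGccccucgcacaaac
miR-7a-5p: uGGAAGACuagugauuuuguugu
miR-7b-5p: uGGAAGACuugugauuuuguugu
miR-7a-1-3p: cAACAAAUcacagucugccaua
miR-7a-2-3p: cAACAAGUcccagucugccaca
miR-7b-3p: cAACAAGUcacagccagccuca

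miR-7a-5p and miR-7b-5p share the seed GGAAGAC and differ by 1 substitution, A10U, with positions counted from 1 at the 5′ end and the base of miR-7a-5p given before that of miR-7b-5p. miR-7a-2-3p and miR-7b-3p share the seed AACAAGU, whereas that of miR-7a-1-3p differs from miR-7a-2-3p at A7G, with A10C and U21C outside the seed. No other listed miRNA with a known sequence carried the seed of any of the 7. The RefSeq entries (GRCm38.p6) matched 5 of the 7 sequences exactly. RefSeq lists miR-7b-5p with 24 bases, against 23 in the files, and holds no entry for miR-375-3p. The GC content ran from 34.8% in both 5p arms of miR-7 to 68.2% in miR-375-5p, beside a median of 50% over the 1101 miRNAs with a count. The 4-letter motif GGAG, searched on the mature strand only, occurred in none of the 7 and in 13.8% of the 1101 miRNAs, and CCCU occurred in miR-375-5p alone among the 7 and in 11.0% of the 1101. A match of this kind is a description of the letters and not a binding site.

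The 4 hairpins are shown because the bases beside an arm decide which hairpin a read can be given to. Capitals mark the 5p and the 3p arm.
mir-375: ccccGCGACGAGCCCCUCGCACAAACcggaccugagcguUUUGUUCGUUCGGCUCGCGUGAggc
mir-7a-1: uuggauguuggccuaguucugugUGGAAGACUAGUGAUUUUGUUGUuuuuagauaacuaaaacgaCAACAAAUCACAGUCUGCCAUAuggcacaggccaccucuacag
mir-7a-2: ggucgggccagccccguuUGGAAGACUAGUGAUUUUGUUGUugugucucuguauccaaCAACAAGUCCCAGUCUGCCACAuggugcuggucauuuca
mir-7b: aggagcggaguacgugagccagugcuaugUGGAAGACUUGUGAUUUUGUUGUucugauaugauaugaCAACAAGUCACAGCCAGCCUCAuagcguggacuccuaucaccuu

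All 4 hairpin sequences matched RefSeq loci on GRCm38.p6, the assembly that mm10 denotes. Mir375 lies on the minus strand of chromosome 1 (chr1:74900658-74900721), Mir7-2, which encodes mir-7a-2, on the plus strand of chromosome 7 (chr7:78888277-78888373) and Mir7b on the plus strand of chromosome 17 (chr17:56242988-56243098). GENCODE vM21 annotates no other gene over these 3. Mir7-1, which encodes mir-7a-1, lies on the minus strand of chromosome 13 (chr13:58392779-58392886), inside an intron of Hnrnpk, which encodes an RNA-binding protein, on the same strand.

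The cell libraries held 2930217 and 2564068 counts on mature miRNAs and the exosome libraries 47447 and 31409. A level of 3 counts, taken as the floor of detection, stood at 1.02 RPM in cell replicate 1, 1.17 in cell replicate 2, 63.2 in exosome replicate 1 and 95.5 in exosome replicate 2, where RPM is the authors' count scaled to the sum of mature counts of the library. The members were 22 or 23 bases long, so their levels were compared without scaling to length. The intervals below are 95% Wilson intervals of single libraries and, like the floor, cover counting error only. The 2 exosome libraries differed from each other more than the 2 cell libraries did, with a chi-square per degree of freedom of 77.3 against 24.1, so values are given by library.

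The miR-7 family took a smaller share of each exosome library than of each cell library, and for the miR-375 arms the libraries overlapped when all mature counts made up the total. miR-7 arms took 4.42% and 4.48% of the mature counts in cell replicates 1 and 2 but 1.53% (interval 1.43 to 1.65) and 0.493% (0.422 to 0.577) in exosome replicates 1 and 2. The mean share was 4.45% ± 0.0406 (SD, n = 2) for cells, against 1.01% ± 0.736 (SD, n = 2) for exosomes. The 2 arms of miR-375 took 0.947% and 1.02% of the 2 cell libraries, and 1.08% and 0.716% of exosome replicates 1 and 2. With 2 libraries against 2 the smallest p of a two-sided exact permutation test is 0.333, which the miR-7 share reached, and the miR-375 share gave p = 1. The overlap of the miR-375 arms depends on the total, since with let-7 miRNAs left out of it their share was 2.87% and 2.96% in the cells but 1.82% and 0.838% for exosome replicates 1 and 2 (exact permutation p = 0.333). Without let-7, 967786 of 2930217 and 880427 of 2564068 counts remained in cell replicates 1 and 2. In exosome replicates 1 and 2, 28236 of 47447 and 26849 of 31409 remained, so let-7 took a larger part of the cell libraries. In bulk samples a smaller number of vesicles that carry a miRNA and fewer copies per vesicle cannot be told apart.

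The order of the levels by mean RPM changed between cells and exosomes. In cells miR-7a-5p stood at the top with 26495 ± 475 RPM (SD, n = 2) and ranked 8 among all miRNAs in each library. It was followed by miR-375-3p with 9497 ± 543, miR-7b-5p with 8363 ± 188, miR-7a-2-3p with 7342 ± 942 and miR-7a-1-3p with 1971 ± 102 RPM. The libraries of each of these neighbours did not overlap, and only miR-375-5p (328 ± 48.7 RPM) and miR-7b-3p (318 ± 25.9 RPM), the least abundant 2, overlapped each other. In exosomes miR-375-3p had the highest mean, 8877 ± 2558 RPM, and miR-7a-5p came after it with 4661 ± 5151 RPM. There the libraries of neighbours overlapped throughout the order except between miR-7b-3p (566 ± 145 RPM) and miR-375-5p (111 ± 21.9 RPM). miR-375-3p ranked 17 and 16 among all miRNAs in cell replicates 1 and 2 and 18 and 21 in exosome replicates 1 and 2, whereas miR-7a-5p ranked 20 in exosome replicate 1 and 59 in replicate 2.

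**Figure D1:**
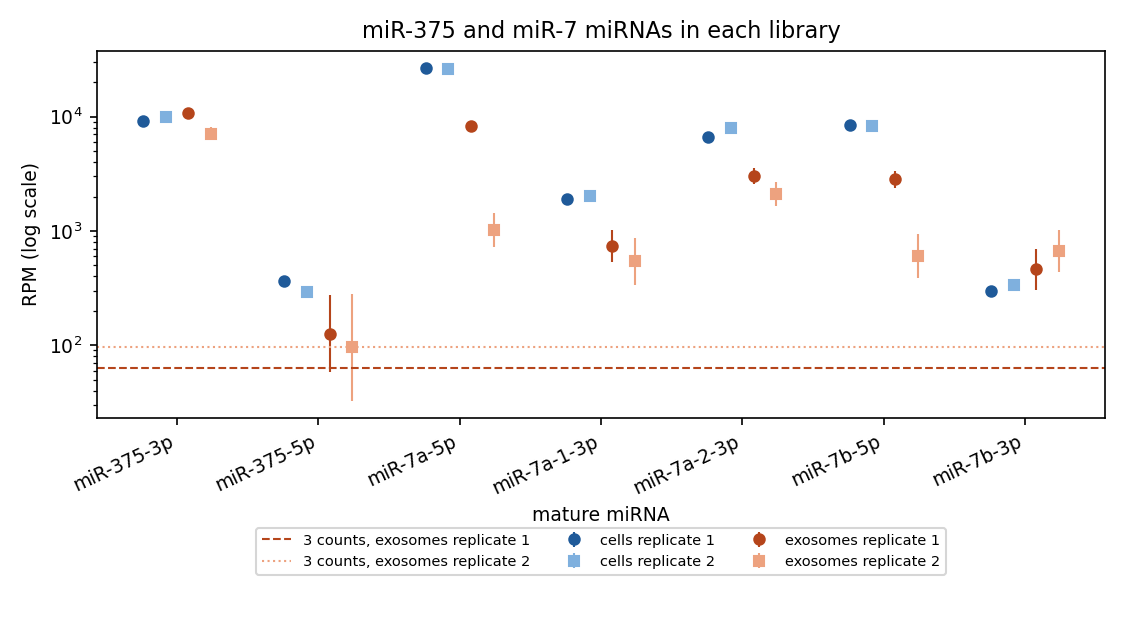
RPM (log scale) of the 7 mature miRNAs in the 2 cell and 2 exosome libraries, with 95% Wilson intervals of each library and lines at the RPM of 3 counts in each exosome library. The exosome points of miR-7a-5p, miR-7b-5p, miR-7a-1-3p and miR-7a-2-3p lie below both cell points, those of miR-375-3p lie around them, those of miR-7b-3p lie above them, and miR-375-5p reaches the line of 3 counts.

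The comparison of exosomes with cells used edgeR quasi-likelihood fits to the deposited counts of all 438 miRNAs that passed the filter on low counts, with TMM scaling, which sets the libraries to a common level through the miRNAs that change least. All 7 members passed the filter. At an adjusted p under 0.05, 6 of the 7 were lower in exosomes and 0 were higher. Of all 438 tested miRNAs 29.5% were lower and 23.7% were higher, or 53.2% in either direction. The 6 were also those whose TMM-scaled values were lower in each exosome library than in each cell library, which held for 51.8% of the tested miRNAs, and 0 members had the reverse order, which held for 33.3%. The median log2 fold change of the 7 was -2.87, beside -0.75 for all tested miRNAs. That shift of the whole table depends on the scaling, since the median was 0.61 when libraries were scaled by their totals alone and -0.07 with upper quartile scaling. The members' fold changes from all 4 libraries are therefore also given relative to the median of all tested miRNAs. The filter was applied anew when a library was left out, and this moved the median too. It was -2.53 over 468 miRNAs without exosome replicate 1, and -1.34 over the 411 of them that are also among the 438. Without exosome replicate 2 it was -0.98 over 494 and -0.80 over the shared 424. Values from those fits are set against both medians, in a choice made after the data were seen.

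miR-375-3p, the arm that acts in islets, had 26702 reads in cell replicate 1, 25335 in cell replicate 2, 507 in exosome replicate 1 and 222 in exosome replicate 2. In RPM these were 9113, 9881, 10686 and 7068, and the cell values lay between the exosome values. After TMM scaling both exosome libraries (5978 and 5170 CPM) lay below both cell libraries (13823 and 16143 CPM), with a log2 fold change of -1.43 (SE 0.42, edgeR adjusted p = 0.0475). Relative to the median of all tested miRNAs its log2 fold change was -0.68. Scaling by library totals alone left a log2 fold change of -0.09 (edgeR adjusted p = 0.900). The call was also lost with RLE and upper quartile scaling and without either cell replicate, where the edgeR adjusted p was 0.111 without cell replicate 1 and 0.189 without cell replicate 2. Without exosome replicate 1 miR-375-3p was not below the median, at 0.18 relative to the shared miRNAs and 1.37 relative to the whole fit.

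miR-375-5p, the arm that is mostly degraded, was the scarcest member in the exosomes. It had 1061 and 752 reads in cell replicates 1 and 2 and 6 and 3 in exosome replicates 1 and 2, so that the exosome level rests on 9 reads and replicate 2 is at the floor. At an unchanged TMM-scaled level, 43.6 and 22.1 reads would have fallen on it in exosome replicates 1 and 2. Its log2 fold change was -2.87 (SE 0.42, edgeR adjusted p = 0.0108), and -2.12 relative to the median. That SE was derived from the F statistic and does not show how wide the counting error is at 6 and 3 reads. The Wilson intervals of its share of the mature counts were 0.00580% to 0.0276% in exosome replicate 1 and 0.00325% to 0.0281% in replicate 2. The groups did not overlap in RPM either (362 and 293 against 126 and 95.5). With library totals alone the log2 fold change was -1.53 (edgeR adjusted p = 0.0653), and without cell replicate 1 or 2 the edgeR adjusted p was 0.0783 or 0.0678. Without exosome replicate 1 its log2 fold change was -1.17 relative to the shared miRNAs but 0.016 relative to the whole fit.

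miR-7a-5p, the arm made by both mir-7a hairpins, showed the largest fitted decrease of the 7. It had 78620 and 67072 reads in cell replicates 1 and 2, and 394 and 32 in exosome replicates 1 and 2. The RPM were 26831 and 26158 in the cells, against 8304 and 1019 for exosome replicates 1 and 2, so both exosome libraries were low, and replicate 2 was far lower than replicate 1. The log2 fold change was -3.94 (SE 1.06, 95% interval -6.82 to -1.06, edgeR adjusted p = 0.0397), a 15.4-fold decrease, and -3.20 relative to the median. With a lone exosome library the spread comes from the 2 cell libraries only, so those fits are given without p-values. With exosome replicate 1 alone the log2 fold change was -3.07 and with replicate 2 alone -5.44. Relative to the shared miRNAs these were -2.27 and -4.10, and relative to the whole fits -2.09 and -2.91. The gap between the exosome libraries was smaller in these relative values, but the medians cover differently filtered miRNAs, and the reason was not tested. With library totals alone the log2 fold change was -2.49 (edgeR adjusted p = 0.129).

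miR-7b-5p, which shares the seed of miR-7a-5p, followed a like course over the libraries. Its reads numbered 24894 and 21101 in cell replicates 1 and 2 but 134 and 19 in exosome replicates 1 and 2, or 8496, 8230, 2824 and 605 RPM. Here too both exosome libraries lay below the cells and replicate 2 was the lowest. The log2 fold change was -3.68 (SE 0.77, edgeR adjusted p = 0.0231), and -2.94 relative to the median. With exosome replicate 1 alone it was -2.96, and with replicate 2 alone it was -4.53. Relative to the shared miRNAs these were -2.16 and -3.18, and relative to the whole fits -1.98 and -1.996. With library totals alone miR-7b-5p was not called (log2 fold change -2.27, edgeR adjusted p = 0.0932). A read of miR-7a-5p and a read of miR-7b-5p differ at a single base, and how many mismatches the counting allowed is not given in the sources used here. The reads of miR-7a-5p outnumbered those of miR-7b-5p 3.16 and 3.18 times in the cells, against 2.94 and 1.68 times for exosome replicates 1 and 2.

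The 3p arms of the mir-7a hairpins fell by nearly the same amount as each other. miR-7a-2-3p had 19561 and 20533 reads in cell replicates 1 and 2, and 143 and 66 in exosome replicates 1 and 2, for a log2 fold change of -2.85 (SE 0.43, edgeR adjusted p = 0.0119). miR-7a-1-3p went from 5566 and 5239 reads to 35 and 17, for a log2 fold change of -2.94 (SE 0.38, edgeR adjusted p = 0.00860). Relative to the median these were -2.10 and -2.20. Without exosome replicate 1 they were -1.20 and -1.26 relative to the shared miRNAs but -0.012 and -0.072 relative to the whole fit. In RPM each exosome library was lower than each cell library for each arm, and for miR-7a-2-3p the exosome values of 3014 and 2101 RPM were closer to each other than the exosome values of either 5p arm. With library totals alone neither passed (log2 fold change -1.51 and -1.61, edgeR adjusted p = 0.0722 and 0.0561).

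miR-7b-3p was the single member that did not pass the test. Its reads numbered 879 and 863 in cell replicates 1 and 2, and 22 and 21 in exosome replicates 1 and 2. By RPM both exosome libraries (464 and 669) lay above both cell libraries (300.0 and 337), while after TMM scaling the groups overlapped (455 and 550 CPM in cells, 259 and 489 CPM in exosomes). The log2 fold change was -0.45 (SE 0.47, 95% interval -1.72 to 0.81, edgeR adjusted p = 0.439), and 0.29 relative to the median (-0.09 without a filter on low counts). At an unchanged TMM-scaled level 42.6 and 21.6 reads would have been found in exosome replicates 1 and 2. Its direction depends on the scaling, since the log2 fold change was 0.83 with library totals alone and 0.29 with upper quartile scaling. With exosome replicate 2 alone it was 0.33 and with replicate 1 alone -0.85. Relative to the shared miRNAs these were 1.67 and -0.055, and relative to the whole fits 2.86 and 0.13. The log2 fold change was -1.76 without a filter on low counts (edgeR adjusted p = 0.0445).

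**Figure D2:**
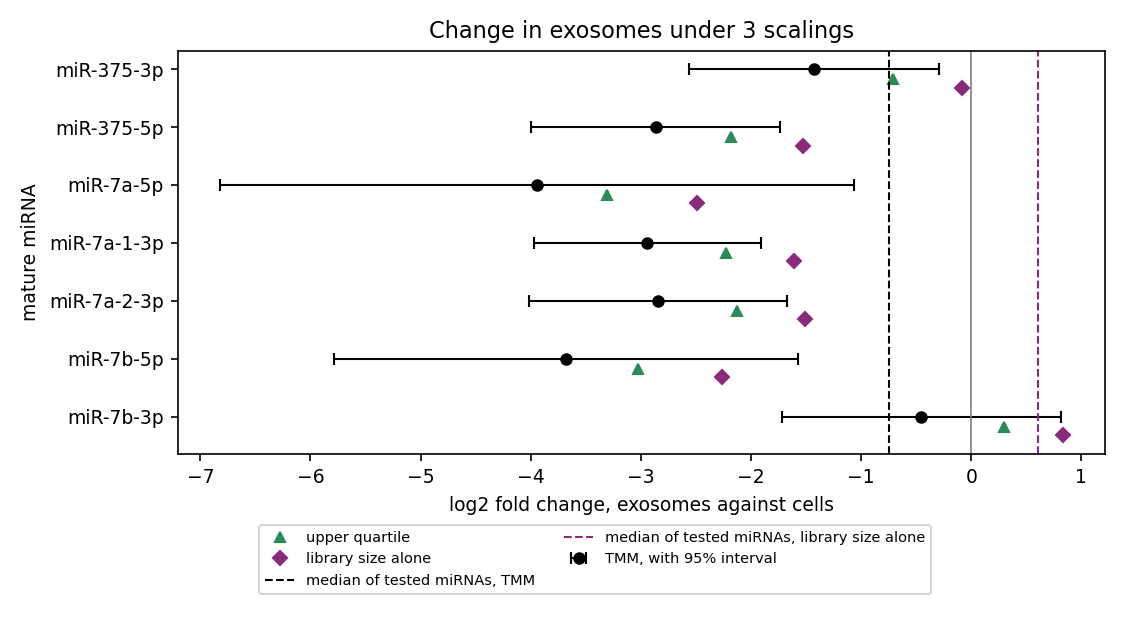
log2 fold change of exosomes against cells for the 7 mature miRNAs with TMM scaling (points, bars are 95% intervals of the edgeR quasi-likelihood fit), upper quartile scaling and library size alone, with dashed lines at the median of the tested miRNAs under TMM (-0.75) and under library size alone (0.61). Every TMM point but that of miR-7b-3p has an interval below 0, and library size alone moves all 7 to the right, to 0.83 for miR-7b-3p and to -2.49 for miR-7a-5p.

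Ratios of 2 miRNAs within a library do not depend on how libraries are scaled to each other, and 8 such ratios were compared by a two-sided exact permutation test of log2 ratios with 0.5 added to the counts. For 7 of the 8 the exosome and cell libraries did not overlap, and each of these gave p = 0.333, the smallest that 2 against 2 libraries allow (exact permutation test, adjusted over the 8, 0.381). None can pass 0.05 in this design. Separation was common, since of the 3p to 5p ratios of all 130 hairpins 43 lay above the cells in both exosome libraries and 50 below. No such share was taken for ratios between hairpins. The 8 ratios are not independent, since miR-7a-5p and miR-375-3p each enter several of them. The arms that act in islets, miR-7a-5p and miR-375-3p, changed places. Reads of miR-7a-5p outnumbered those of miR-375-3p 2.94 and 2.65 times in cell replicates 1 and 2, but in exosome replicates 1 and 2 the ratio was 0.777 and 0.144. The mean log2 ratio went from 1.48 ± 0.108 (SD, n = 2) to -1.57 ± 1.71 (SD, n = 2), an 8.29-fold decrease. Without exosome replicate 2 the difference of the log2 ratio was -1.84 and without replicate 1 it was -4.26, in place of -3.05.

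The 3p arm took a larger part of the reads in both exosome libraries than in both cell libraries on each of the 4 hairpins. Among all 130 hairpins with both arms tested, this was the case for 33.1%, and it was the reverse for 50 of them. On mir-7b the 3p share of the reads on both arms was 3.41% and 3.93% in cell replicates 1 and 2, 14.1% (interval 9.50 to 20.4) in exosome replicate 1 and 52.5% (37.5 to 67.1) in exosome replicate 2. In exosome replicate 2 the reads of the 3p arm, 21, were thus as many as those of the 5p arm, 19. The log2 ratio of 3p to 5p was higher by 3.50 in the exosomes, an 11.3-fold difference, and by 2.14 without exosome replicate 2 and 4.86 without exosome replicate 1.

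On the mir-7a hairpins the same shift was seen, but it rested on exosome replicate 2. For mir-7a-2 the 3p share was 19.9% and 23.4% in the cells, 26.6% (interval 23.1 to 30.5) in exosome replicate 1 and 67.3% (57.6 to 75.8) in replicate 2. For mir-7a-1 it was 6.61% and 7.25% in the cells, 8.16% (5.92 to 11.1) in exosome replicate 1 and 34.7% (22.9 to 48.7) in replicate 2. These 2 hairpins share the count of miR-7a-5p and are not independent. The log2 ratio of 3p to 5p differed by 1.64 for mir-7a-2 and 1.57 for mir-7a-1, but by 0.40 and 0.28 without exosome replicate 2. On mir-375 the 3p share was 96.2% and 97.1% in the cells and 98.8% (97.5 to 99.5) and 98.7% (96.2 to 99.5) among exosome reads, where the 5p arm has 6 and 3 reads. Its log2 ratio differed by 1.28.

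A test of arm usage across all 130 hairpins, chosen after these ratios had been seen, asked whether the arms of a hairpin change unequally (diffSpliceDGE in edgeR, adjusted over the hairpins). It called mir-7b (edgeR adjusted p = 0.0174) and did not call mir-375 (edgeR adjusted p = 0.0979), mir-7a-1 (0.443) or mir-7a-2 (0.446). Over all 130 hairpins, 12.3% were called with a higher 3p share in exosomes and 27.7% in either direction. The call of mir-7b was lost without either cell replicate. Without an exosome library the spread comes from the 2 cell libraries only, so such a fit cannot show whether a call holds. On mir-7b the log2 ratio of 3p to 5p differed by 2.14 without exosome replicate 2 and by 4.86 without exosome replicate 1. Without exosome replicate 1 the difference was 2.86 on mir-7a-1, 2.89 on mir-7a-2 and 1.13 on mir-375. Without exosome replicate 2 it was 0.28, 0.40 and 1.42.

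**Figure D3:**
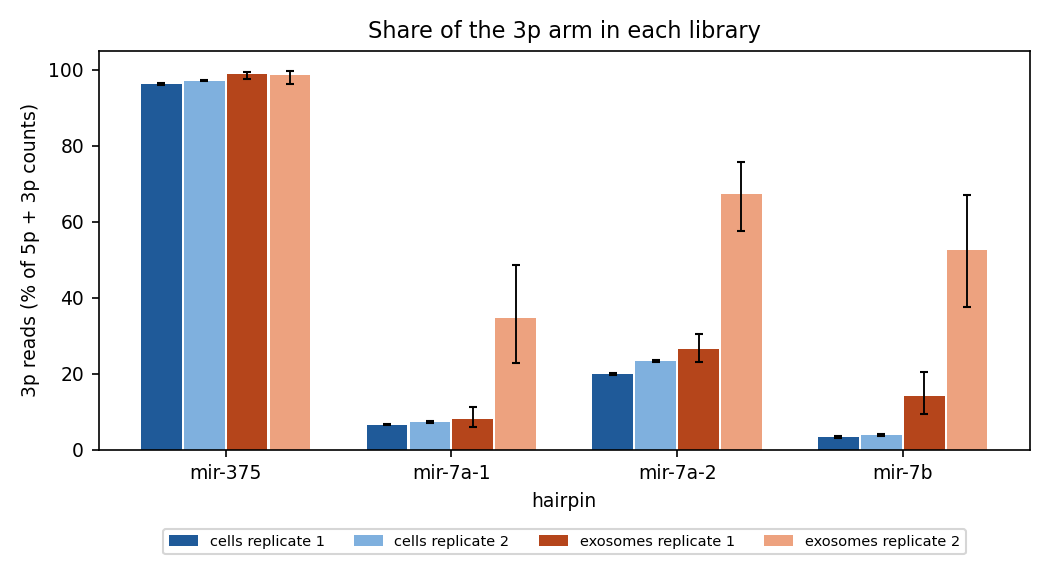
Share of the 3p arm in the counts of both arms (percent, bars from 0, lines are 95% Wilson intervals) on 4 hairpins in each of the 4 libraries. Both exosome bars stand above both cell bars on every hairpin, and on the 3 miR-7 hairpins exosome replicate 2 (34.7%, 67.3% and 52.5%) stands far above exosome replicate 1 (8.16%, 26.6% and 14.1%).

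Some ratios stayed nearly level. Reads of miR-7a-2-3p outnumbered those of miR-7a-1-3p 3.51 and 3.92 times in the cells and 4.09 and 3.88 times among exosome reads, and the groups overlapped (difference of the log2 ratio 0.08, exact permutation p = 0.667). The 2 arms come from different chromosomes and were the single pair of the 8 without separated groups. The 5p arms of miR-7a and miR-7b differed little in their ratio in exosome replicate 1, where the log2 ratio was 1.55 against 1.66 and 1.67 in the cells, and more in replicate 2, where it was 0.74.

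The reads of miR-7a-5p could mostly not be given to either of its hairpins. The files count it on each hairpin separately, and a read found on both enters the table once if the table holds the union of the reads. On that assumption, 74052 of 78620 reads in cell replicate 1 (94.2%) and 63010 of 67072 in replicate 2 (93.9%) lay on both hairpins. Reads that the table holds beyond the count on mir-7a-2 numbered 2777 and 2438, and those beyond the count on mir-7a-1 numbered 1791 and 1624. In the exosomes these were 10 and 8 reads in replicate 1 and 1 and 1 in replicate 2. So the 3p arms, not the 5p arm, tell the hairpins apart here. The base after the 5p arm is u in both hairpins, and the sequences part at the base that follows it.

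Reads on neither annotated arm were rare on these hairpins in cells and made up a few percent in exosomes, except on mir-7a-1, which had 0 there. On mir-375 they were 4 of 27767 and 4 of 26091 hairpin reads in cell replicates 1 and 2, 23 of 536 in exosome replicate 1 (4.29%, interval 2.88 to 6.36) and 6 of 231 in replicate 2 (2.60%, 1.20 to 5.55). On mir-7b they were 19 of 25792 and 15 of 21979 in the cells, 8 of 164 in exosome replicate 1 (4.88%, 2.49 to 9.33) and 1 of 41 in replicate 2 (2.44%, 0.432 to 12.6). On mir-7a-2 they were 1 of 95405 and 0 of 85167 in the cells, the latter with an upper Wilson limit of 0.00451%. They were 12 of 539 (2.23%) and 4 of 101 (3.96%) in the exosomes. On mir-7a-1 they were 6 of 82401 and 10 of 70697 in the cells, but 0 of 421 and 0 of 48 for exosome replicates 1 and 2. The upper Wilson limits of the latter were 0.904% and 7.41%.

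Both exosome libraries thus lay above both cell libraries on 3 of the 4 hairpins. Among the 94 hairpins with at least 20 reads in every library the same was true of 38.3%. The median over those hairpins was 0.118% and 0.0664% in the cells, against 2.02% and 2.52% for exosome replicates 1 and 2. In exosome replicate 1 the intervals of mir-375 and mir-7b lay above that median, and that of mir-7a-2 (1.28 to 3.85) held it. The interval of mir-7a-1, with an upper limit of 0.904%, lay below the median there. In replicate 2 the intervals of mir-375, mir-7a-2 and mir-7b held the median, but they rest on 6, 4 and 1 reads. That of mir-7a-1, with 0 of 48 reads and an upper limit of 7.41%, held it too.

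**Figure D4:**
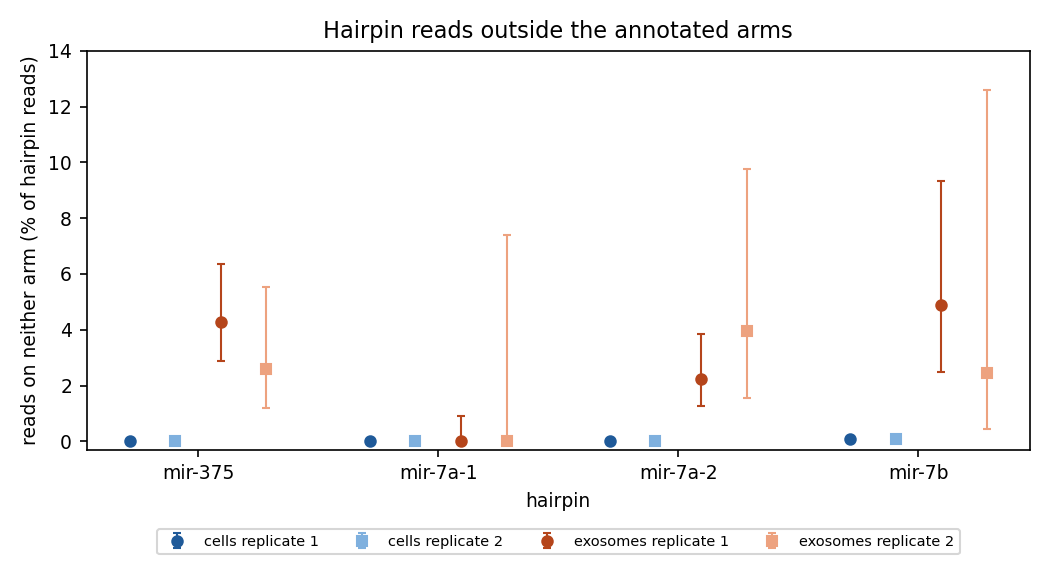
Hairpin reads on neither annotated arm (percent of the reads on the hairpin, lines are 95% Wilson intervals) for the 4 hairpins in each of the 4 libraries. The cell points lie at 0.0737% or below, the exosome points of mir-375, mir-7a-2 and mir-7b lie between 2.23% and 4.88%, and those of mir-7a-1 are at 0.

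More miRNAs known from beta cells were lower in the exosomes. Of a list of 20, 17 were tested, 10 were lower at an edgeR adjusted p under 0.05, 0 were higher, and the median log2 fold change was -3.16, beside 29.5% lower among all tested miRNAs. Some of the 10 passed the filter only through the cell libraries. In exosome replicates 1 and 2, miR-153-3p had 0 and 0 reads, miR-148a-3p 1 and 0, miR-132-3p 0 and 2, and miR-200a-3p 2 and 0. The count of 10 is thus a description. It also rests on TMM, since library totals alone left 30 lower miRNAs in the whole table in place of 129. The 4 most abundant of the list in cells were miR-200c-3p, an epithelial miRNA, miR-183-5p of a sensory and neuroendocrine cluster, miR-24-3p and miR-29a-3p. miR-200c-3p had 26391 and 24894 reads in the cells against 107 and 12 for exosome replicates 1 and 2 (log2 fold change -4.23, edgeR adjusted p = 0.0228). miR-183-5p (-3.65, edgeR adjusted p = 0.0202) and miR-29a-3p (-3.21, edgeR adjusted p = 0.0158) were lower as well. miR-24-3p had a log2 fold change of -1.04 (edgeR adjusted p = 0.218). Relative to the median of all tested miRNAs these 4 stood at -3.48, -2.90, -2.46 and -0.29, in the order miR-200c-3p, miR-183-5p, miR-29a-3p, miR-24-3p. The libraries of 2 list members were separated the other way, with higher values in exosomes, miR-124-3p (log2 fold change 0.75, edgeR adjusted p = 0.245) and miR-212-3p (0.68, edgeR adjusted p = 0.172). These 2 were named after their values were seen.

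The members had different nearest neighbours in their course over the 4 libraries. Among the 99 other miRNAs with at least 10 reads in every library, likeness was taken as the root mean square difference of centred log2 CPM, over which the median distance was 1.12 from miR-375-3p and 2.24 from miR-7a-5p. Nearest to miR-375-3p were miR-345-3p (0.110), miR-23a-3p (0.127) and let-7b-5p (0.134). Nearest to miR-7a-5p were miR-200c-3p (0.187), miR-98-5p (0.329) and its own family member miR-7b-5p (0.382). The 3p arms stood farther from miR-7a-5p, with miR-7a-2-3p at 1.21 and miR-7b-3p at 2.36. With 4 libraries this is a description and carries no test.

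Of 12 miRNAs known from other cell types, 9 were tested, and 8 of the 9 were higher in the exosomes (edgeR adjusted p under 0.05), beside 23.7% of all tested miRNAs. The exception was the muscle miRNA miR-1a-3p (log2 fold change 0.08, edgeR adjusted p = 0.936). In cell replicates 1 and 2, miR-451a and miR-142a-3p had 0 reads and miR-223-3p had 1 and 0. There miR-486a-5p had 3 and 4 reads and miR-145a-5p 3 and 1. These miRNAs passed the filter only through the exosome libraries, where they are high, so their direction was fixed in advance. The count of 8 therefore describes the list and does not test it. The 3 erythroid miRNAs listed summed to 3 and 4 reads in the cells and to 277 and 31 in exosome replicates 1 and 2, with miR-144-3p at 0 in exosome replicate 2. The 2 myeloid miRNAs summed to 1 and 0 reads in cells, against 31 and 13 for exosomes, and the liver miRNA miR-122-5p went from 13 and 21 reads to 79 and 62. The endothelial miR-126a-3p had 44 and 64 reads in cell replicates 1 and 2 but 37 and 23 in the far shallower exosome libraries, and the 2 mesenchymal miRNAs summed to 40 and 22 and to 56 and 38. The 3 muscle miRNAs had at most 47 reads in a library, all on miR-1a-3p, with miR-133a-3p and miR-206-3p at 0 throughout. In RPM the erythroid sum was 5838 in exosome replicate 1 and 987 in replicate 2, and the liver miRNA stood at 1665 and 1974. Of the beta-cell markers, miR-184-3p had 14086 and 9421 reads in cell replicates 1 and 2, and 381 and 144 in exosome replicates 1 and 2 (log2 fold change -0.76, edgeR adjusted p = 0.177), which is -0.014 relative to the median. miR-184-3p, miR-200c-3p and miR-182-5p, the beta-cell markers other than the members, had reads in every library. Of the wider beta-cell list, miR-153-3p, miR-96-5p and miR-9-5p were at 0 in both exosome libraries. In cell replicates 1 and 2 they had 121 and 63, 19 and 24, and 3 and 10 reads. miR-96-5p and miR-9-5p were not tested, and at such counts 0 reads in the far shallower exosome libraries show no loss. The part of the miRNAs of these lists in the lower share of miR-7 in exosomes was not tested.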

How the data were processed

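Small RNA of 2 MIN6 cell libraries and 2 exosome libraries was made into cDNA with a poly(A)-tailing kit (SMARTer) and sequenced on a HiSeq2500. Adapter trimming and removal of rRNA reads by the authors preceded alignment, first to the reference genome, then to miRBase v21 and last to RNAcentral v10.0, and the study names different instruments for the quality check of cell and exosome libraries, which cannot be told apart from the groups. The submitters' processing notes name mm10, cutadapt, Bowtie, Bowtie2, STAR, RSEM and edgeR. The authors deposited whole read counts per mature miRNA, without normalization, and RPM values, which equal each count divided by the library sum. They also deposited whole read counts per hairpin, per arm and on neither arm for each library. A group was taken from the sample title. In 3 hairpins of each library, none of them of these families, the parts did not sum to the deposited total.

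Starting from the counts, miRNAs were kept by filterByExpr (minimum count 10), scaled by TMM and tested with glmQLFTest of edgeR 4.0.16 (R 4.3.3), with Benjamini-Hochberg adjustment over all 438 tested miRNAs and a threshold of 0.05. SE was derived from the log2 fold change and its F statistic. CPM are TMM-scaled counts per unit of library size. Exact permutation tests, Wilson intervals and figures used scipy 1.17.1, statsmodels 0.14.6 and matplotlib 3.10.9. The fits were also run on simulated counts, with a smaller dispersion than was fitted here and the same dispersion in both groups. Those runs therefore do not show how the tests perform on these data. Alternatives were other scalings, filters and tests (DESeq2 1.42.0, limma 3.58.1, exactTest), the replicate block and leaving out each library.

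The members, lists and tests were chosen with earlier results of these data known. Named were the 7 members, miRNAs sharing their seed, the 3 most alike to miR-375-3p and to miR-7a-5p, and the 4 most abundant of the beta-cell list. miRNAs of other cell types came from a fixed list, from which those named were chosen after their values were seen.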

Additional observations from a re-analysis of the deposited data

How the results depend on the processing

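The 6 lower members stayed below 0 under each alternative run, whereas miR-7b-3p changed sign. Relative to the median of the same fit this does not hold without exosome replicate 1, where that median was -2.53: miR-375-3p stood at 1.37, miR-375-5p at 0.016, miR-7a-1-3p at -0.072 and miR-7a-2-3p at -0.012, or at 0.18, -1.17, -1.26 and -1.20 relative to the 411 miRNAs shared with the fit to all libraries (median -1.34). With library size alone none of the 7 passed the adjusted threshold: the log2 fold change was -0.089 for miR-375-3p, -1.53 for miR-375-5p, -2.49 for miR-7a-5p, -1.61 for miR-7a-1-3p, -1.51 for miR-7a-2-3p, -2.27 for miR-7b-5p and 0.83 for miR-7b-3p, the median of all tested miRNAs 0.61, and 30 miRNAs were lower in place of 129. miR-375-3p also lost its call with RLE (-1.53), upper quartile scaling (-0.71) and at least 10 counts in every library (-1.41), where 37 miRNAs were higher and 40 lower, and miR-7b-3p was at 0.29 with upper quartile scaling. miR-7a-5p, miR-7a-1-3p, miR-7a-2-3p and miR-7b-5p each kept direction and call in 13 of 14 alternatives, all but library size alone. The fits that leave out a library are among the 14, and their calls take the spread from 1 group alone. Without a filter miR-7b-3p was called at -1.76, and 202 miRNAs were lower. Why these settings moved the calls was not tested.

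The replicate numbers of the titles name no shared culture or day. The deviations of same-numbered libraries from their group mean had a correlation of 0.145 across 438 miRNAs, with 2 pairs. With the replicate number as a block miR-375-3p was no longer called (-1.43, edgeR adjusted p = 0.247), 117 miRNAs were higher and 109 lower, and no other member's call changed.

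Leaving out each library in turn gave ranges of -2.19 to -1.16 for miR-375-3p, -3.51 to -2.52 for miR-375-5p, -3.70 to -2.60 for miR-7a-1-3p, -3.68 to -2.54 for miR-7a-2-3p, -4.53 to -2.96 for miR-7b-5p, -5.44 to -3.07 for miR-7a-5p and -1.18 to 0.33 for miR-7b-3p. The value of -2.52 for miR-375-5p rests on the 3 reads of exosome replicate 2. In every such fit a lone library was assumed to vary like the other group, so its calls do not show whether a result holds. The counts of higher and lower miRNAs ran from 46 to 115 and from 56 to 162, lowest without cell replicate 2. The arm difference (log2 of 3p over 5p) ran from 1.07 to 1.49 for mir-375, 0.28 to 2.86 for mir-7a-1, 0.40 to 2.89 for mir-7a-2 and 2.14 to 4.86 for mir-7b, and the hairpins called from 0 to 52 in place of 36, or 10 with at least 10 counts on both arms in every library. The share of the miR-375 arms differed by between -0.27 and 0.099 percentage points, above 0 without exosome replicate 2.

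With let-7 miRNAs left out of the library total, the share on the 7 members was lower in exosomes by -13.2 percentage points, that of miR-7 by -11.6 and that of the miR-375 arms by -1.59, against -3.52, -3.43 and -0.0837. Adding 1 in place of 0.5 to the counts changed the direction of none of the 8 ratios. For mir-7a hairpins the share on neither arm could not be recomputed from the table, which counts miR-7a-5p over both. The 31409 to 47447 counts of the exosome libraries limit most of all miR-375-5p.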
